A study of Homo sapiens with 12 samples.

Results

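JMJD8 and STUB1, MXD3 and PRELID1, and SHLD2 and GLUD1 are 3 pairs of human protein-coding genes whose exons overlap on opposite strands. The 6 genes were chosen by symbol from 15534 gene IDs, because the values listed under at least 1 gene of each pair were among the highest of the table and the pairs have exons on opposite strands. Those levels chose the genes, so they are given as a description. The level within each pair, its order along the sucrose gradient and its difference between treatments are described below.

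The values came from HEK293T cells, an established human embryonic kidney line carrying the SV40 large T antigen. The cells were treated with a PRMT1 inhibitor, with a PRMT4 inhibitor or with DMSO, the solvent control. PRMT1 and PRMT4 (also called CARM1) are enzymes that methylate arginines in proteins, many of which bind RNA. For each treatment, 4 libraries were listed: the total input and the mRNA carrying 1 ribosome, 2 ribosomes, or 3 or more ribosomes after separation on a sucrose gradient of 10 to 50%. The labels name neither the compounds nor their doses and times. Every combination of treatment and fraction had 1 library, 12 in all, so no difference could be set against replicates and no test was run. The spread between the 3 treatments is given in its place, with the reminder that they are different conditions.

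Polysome profiling orders an mRNA by how many ribosomes it carries at once. An mRNA that is initiated often, or has a long reading frame, tends to sit in the heavier fractions, and one that is initiated seldom or has a short frame tends to sit with a single ribosome. Where genes on opposite strands share exons, only the strand of a sequenced fragment says which of them it came from. The library kit keeps the strand, per the labels, and the strand setting used for counting was not given in the sources used here. A listed value may therefore hold fragments of the partner, and the mRNA of a gene and that of its partner cannot be told apart here. All levels below are values listed under a gene's name.

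The genes have unrelated functions. JMJD8 is a JmjC-domain protein of the endoplasmic reticulum, and STUB1 (also called CHIP) is a ubiquitin ligase and co-chaperone that marks clients of HSP70 and HSP90 for degradation. MXD3 is a transcription repressor of the MYC network that binds DNA with MAX, and PRELID1 carries phosphatidic acid between the mitochondrial membranes together with TRIAP1. SHLD2 is a subunit of shieldin, which protects DNA ends from resection downstream of 53BP1, and GLUD1 is the mitochondrial glutamate dehydrogenase that turns glutamate into alpha-ketoglutarate.

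In the GENCODE release 29 annotation, JMJD8 (minus strand) and STUB1 (plus strand) of chromosome 16 lie tail to tail and share 983 exonic bases. These are 37.4% of the exonic bases of JMJD8 and 42.4% of those of STUB1. They lie in 13 of 16 JMJD8 transcripts and 10 of 11 STUB1 transcripts, and 67 of them are coding in JMJD8, against 436 in STUB1. MXD3 (minus strand) and PRELID1 (plus strand) of chromosome 5 share 1158 exonic bases, which are 22.5% of MXD3 and 61.8% of PRELID1. Only 2 of 9 MXD3 transcripts hold them, against 7 of 8 PRELID1 transcripts, and none of the bases is coding in MXD3 while 445 are coding in PRELID1. SHLD2 (plus strand) and GLUD1 (minus strand) of chromosome 10 lie head to head and share 464 exonic bases, or 10.9% of SHLD2 and 13.2% of GLUD1. The shared bases are in 1 of 3 SHLD2 transcripts, SHLD2-203, where they are not coding, and in 1 of 4 GLUD1 transcripts, GLUD1-201, where 445 of them are coding.

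**Figure D1:**
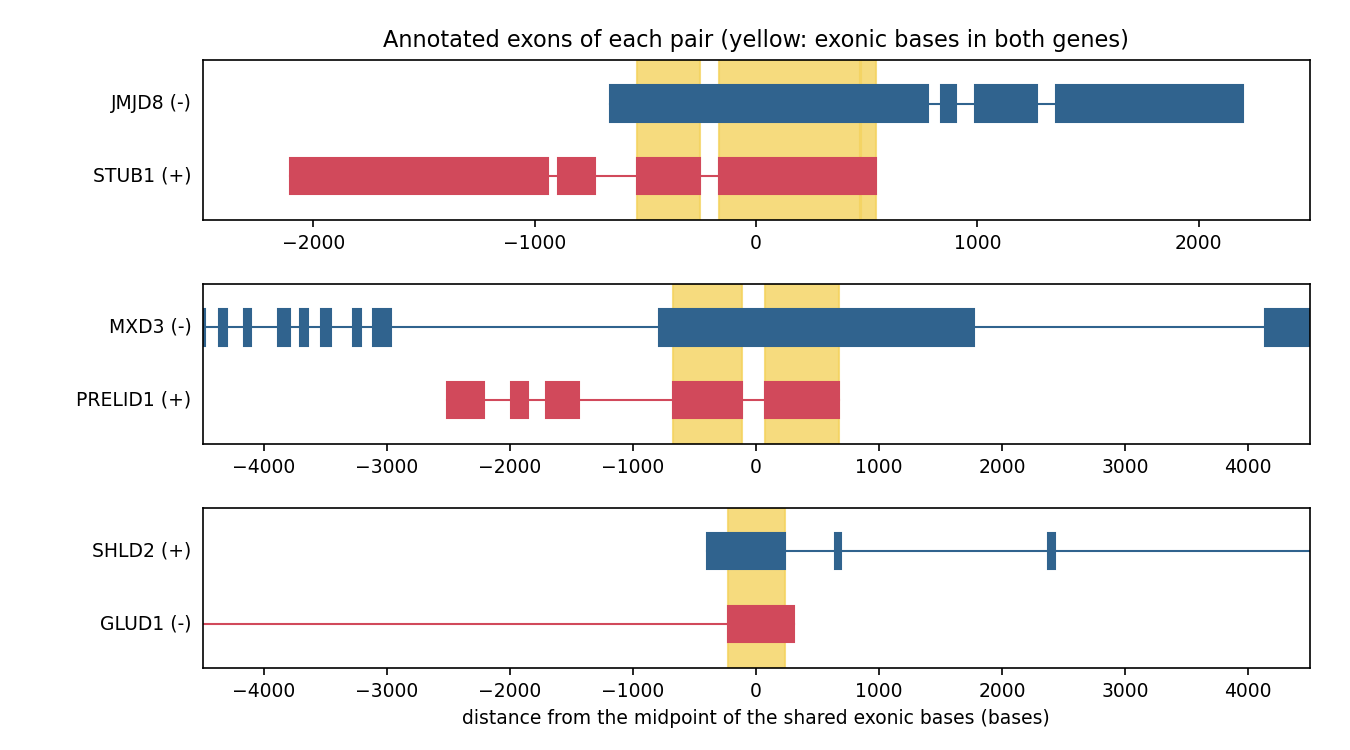
Exons of the 3 pairs, merged over all annotated transcripts (boxes), on a horizontal axis of distance in bases from the midpoint of the shared exonic bases. The yellow bands mark bases that are exonic in both genes: 983 for JMJD8 and STUB1, 1158 for MXD3 and PRELID1, and 464 for SHLD2 and GLUD1, each drawn to the scale of its own panel and cut at its edges.

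The shared bases are shown for each pair as 30 letters from the middle of the longest shared stretch, first in the sense of the gene with the higher mean and then in that of its partner. Each line is the reverse complement of the line before it in its pair, so an RNA of either gene yields the same letters apart from strand. They were read from GENCODE release 29 transcripts on GRCh38 and lie at chr16:682468-682497, chr5:177306647-177306676 and chr10:87094542-87094571.
JMJD8, minus strand: agggaacctcagtagtcctccacccagcca
STUB1, plus strand: tggctgggtggaggactactgaggttccct
MXD3, minus strand: gacagcagacagggctggaagttgattttt
PRELID1, plus strand: aaaaatcaacttccagccctgtctgctgtc
SHLD2, plus strand: gcgatcgaagaagccctccaccatcttgaa
GLUD1, minus strand: ttcaagatggtggagggcttcttcgatcgc
The STUB1 letters run over the end of its reading frame (19 of 30 coding), the GLUD1 letters are coding throughout (30 of 30), and the other 4 are not coding in the transcript read.

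No other gene shared exonic bases with these 6 except RAB24, a small GTPase on the same strand as MXD3, with 926 bases in common. RAB24 was listed at a mean of 11.5 FPKM, with 33.6 as its highest value. GLUD2, a near-identical copy of GLUD1 on another chromosome, and the pseudogenes SHLD2P1, SHLD2P3, GLUD1P2 and GLUD1P3 are not analysed here. Fragments from such copies may be split with GLUD1 and SHLD2, so these 2 genes carry that further uncertainty.

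The libraries were shallow. The smallest spacing between low values of single-transcript genes was 1.75 to 2.41 FPKM for a length of 1 kilobase, which puts a library at about 415000 to 571000 counted fragments. With the lengths of their protein-coding transcripts, 432 fragments or more stood behind every JMJD8 value, 237 or more behind STUB1, 137 or more behind MXD3 and 168 or more behind SHLD2. PRELID1 had about 8.68 to 90.8 fragments a library and GLUD1 about 18.0 to 75.7. JMJD8, STUB1, PRELID1 and GLUD1 also have shorter annotated transcripts, and with those lengths their estimates would be lower. The DMSO input stood apart, with a summed FPKM of 201967, against 329897 to 425444 in the other 11 libraries, and results that use it are marked. Of 10 genes fixed as marks of HEK293T cells, 9 were in the table: KRT8 and VIM averaged 907 and 261 FPKM, NEFM 14.7, INA 8.50 and KRT18 7.79, while LIN28B, LHX1, PAX2 and SOX11 averaged 1.25 or less. Among markers of other cell types, COL1A1 averaged 0.52 FPKM, and GFAP, which has exons opposite CCDC103 and FAM187A, averaged 153. The summed level of the HEK293T markers ran between 668 and 2228 FPKM a library. Their part in the results was not tested, and in such bulk RNA fewer cells of a type and less RNA per cell cannot be told apart.

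JMJD8 and STUB1 were both listed at very high levels, and their order differed along the gradient. Over the 12 libraries JMJD8 averaged 2411 ± 995 FPKM and STUB1 1603 ± 870 (SD over libraries of different kinds), the 10th and 16th highest means of the table. Of 911 annotated opposite-strand pairs with both genes at a mean of at least 5 FPKM, only 1 other pair, H3C14 and H4C14, had both genes at 500 or more. In the input and with 1, 2 and 3 or more ribosomes, JMJD8 had 3041, 1575, 2038 and 4171 FPKM with the PRMT1 inhibitor. With the PRMT4 inhibitor it was listed at 1624, 1202, 1646 and 3131, and with DMSO at 1683, 2079, 2708 and 4039. The value was thus lowest with 1 ribosome and highest with 3 or more among the ribosome-bound libraries of every treatment.

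STUB1 ran the other way. Over the same libraries it had 1585, 3514, 1787 and 799.8 FPKM under the PRMT1 inhibitor. Under the PRMT4 inhibitor the values were 720.9, 2659, 1722 and 845.9, and in DMSO 748.7, 2265, 1561 and 1022. Its highest value of every treatment was with 1 ribosome, and within each treatment the value was smaller at each step toward the heavier fractions. Over the 3 treatments the STUB1 values ran from 2265 to 3514 with 1 ribosome and from 800 to 1022 with 3 or more. How many of all genes have ranges as separate was not counted.

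The ratio of JMJD8 to STUB1 is free of library scaling, since both values come from 1 library. It was 0.45, 0.45 and 0.92 with 1 ribosome under the PRMT1 inhibitor, the PRMT4 inhibitor and DMSO. With 3 or more ribosomes it was 5.22, 3.70 and 3.95 in the same order, and in the inputs it was 1.92, 2.25 and 2.25. JMJD8 was therefore the lower of the pair in 3 of 3 libraries of 1 ribosome and the higher in 3 of 3 libraries of 3 or more ribosomes and in 3 of 3 inputs. With 2 ribosomes the ratio was 1.14, 0.96 and 1.73. On the log2(FPKM + 1) scale the ratio averaged 0.67 ± 1.16 (SD, 12 libraries), a spread larger than the mean. JMJD8 took 30.9, 31.1 and 47.9% of the summed FPKM of the pair with 1 ribosome and 83.9, 78.7 and 79.8% with 3 or more.

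**Figure D2:**
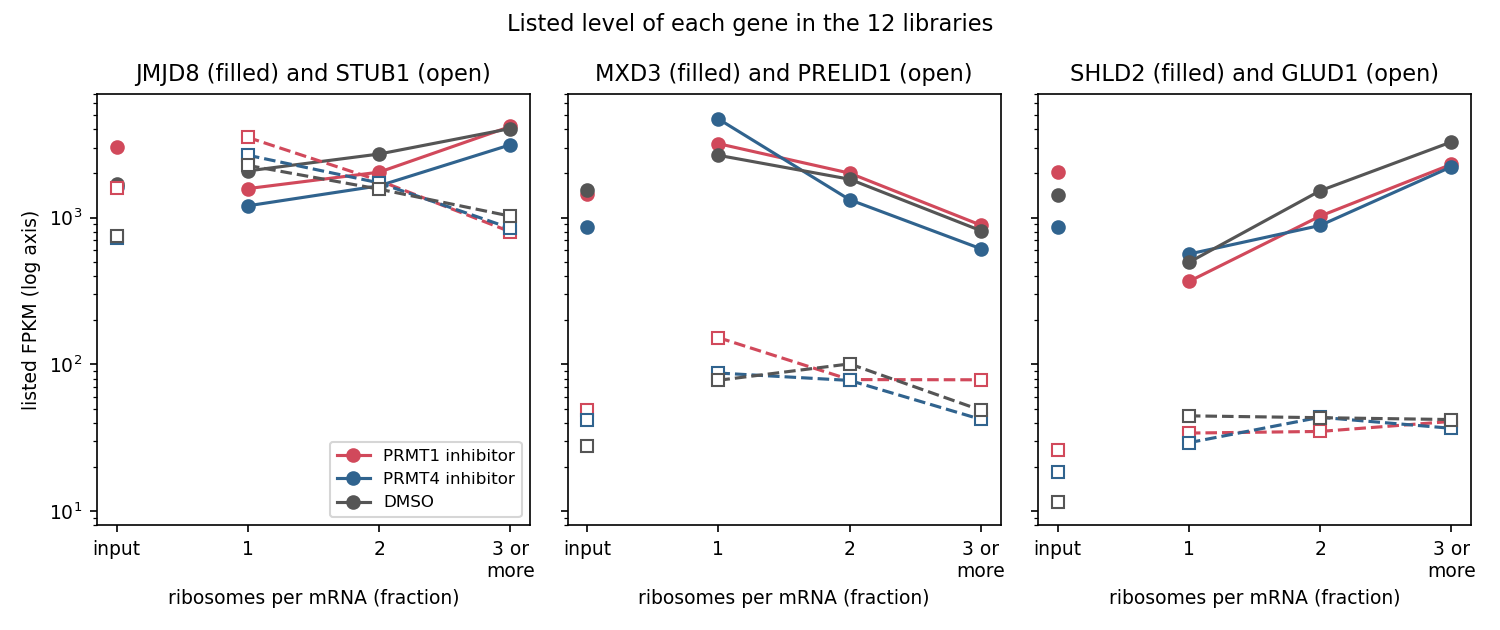
Listed FPKM (log axis) of JMJD8, MXD3 and SHLD2 (filled circles) and of STUB1, PRELID1 and GLUD1 (open squares) in the input and in the fractions of 1, 2 and 3 or more ribosomes, 1 library per point, with lines joining the fractions of a treatment. JMJD8 and STUB1 cross between 1 ribosome (1202 to 2079 against 2265 to 3514) and 3 or more (3131 to 4171 against 800 to 1022), while MXD3 and SHLD2 stay above their partners.

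MXD3 was listed far above PRELID1 in all 12 libraries, and both tended toward the lighter fractions. MXD3 averaged 1819 ± 1190 FPKM, the 15th highest mean of the table, and PRELID1 71.8 ± 33.6, the 854th. In the input and with 1, 2 and 3 or more ribosomes, MXD3 had 1437, 3186, 2007 and 887.9 FPKM under the PRMT1 inhibitor, 861.7, 4693, 1323 and 613.1 under the PRMT4 inhibitor, and 1531, 2655, 1825 and 814.0 in DMSO. It stepped down from 1 to 3 or more ribosomes in each treatment, and its highest value of all, 4693, was with 1 ribosome under the PRMT4 inhibitor.

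Over the same libraries PRELID1 had 48.8, 152, 78.7 and 78.5 FPKM under the PRMT1 inhibitor. Under the PRMT4 inhibitor it was listed at 41.9, 87.2, 77.7 and 42.2, and in DMSO at 27.7, 77.9, 101 and 48.7. It stepped down in both inhibitor gradients, and in DMSO its highest value was with 2 ribosomes. The input was its lowest library in every treatment, although under the PRMT4 inhibitor it lay next to the value with 3 or more ribosomes. The ratio of MXD3 to PRELID1 ranged between 11.3 and 55.3 (the DMSO input) over the 12 libraries, with a median of 20.8. It was 21.0, 53.8 and 34.1 with 1 ribosome and 11.3, 14.5 and 16.7 with 3 or more, under the PRMT1 inhibitor, the PRMT4 inhibitor and DMSO. PRELID1 had about 13 to 44 fragments in these libraries, estimated with its shortest protein-coding transcript. How many opposite-strand pairs have ratios as separate was not counted. The mean log2 ratio was 4.53 ± 0.71 (SD, 12 libraries).

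SHLD2 was likewise listed above GLUD1 in all 12 libraries, and it lay toward the heaviest fraction while GLUD1 was nearly level. SHLD2 averaged 1415 ± 889 FPKM, the 18th highest mean, and GLUD1 33.8 ± 10.6, the 1771st. In the input and with 1, 2 and 3 or more ribosomes, SHLD2 had 2045, 366.9, 1023 and 2303 FPKM under the PRMT1 inhibitor. Under the PRMT4 inhibitor it had 863.7, 563.9, 883.3 and 2216, and in DMSO at 1425, 494.9, 1522 and 3273. Each step toward the heavier fractions had the higher value, in all 3 treatments, and the values with 1 ribosome were the lowest of each treatment, inputs included.

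Over the same libraries GLUD1 had 26.1, 34.0, 34.9 and 40.8 FPKM under the PRMT1 inhibitor. The values were 18.4, 29.3, 43.6 and 36.7 under the PRMT4 inhibitor and 11.5, 44.6, 43.3 and 42.1 in DMSO. The ribosome-bound values were 29.3 to 44.6 and the inputs 11.5 to 26.1, before any centring. These inputs rest on about 18 to 33 fragments, and the lowest is the DMSO input, which stood apart in summed FPKM. How many of all genes have inputs below all their ribosome-bound values was not counted. The ratio of SHLD2 to GLUD1 was 10.8, 19.3 and 11.1 with 1 ribosome, 29.3, 20.3 and 35.2 with 2, and 56.4, 60.5 and 77.8 with 3 or more, under the PRMT1 inhibitor, the PRMT4 inhibitor and DMSO. It was thus larger at every step from 1 to 3 or more ribosomes in each treatment. GLUD1 had about 39 to 76 fragments in these libraries, and how many opposite-strand pairs step in this way was not counted. In the inputs the ratio was 78.3, 47.0 and 124, the last in the DMSO input that stood apart. The mean log2 ratio over the 12 libraries was 5.15 ± 1.13 (SD).

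**Figure D3:**
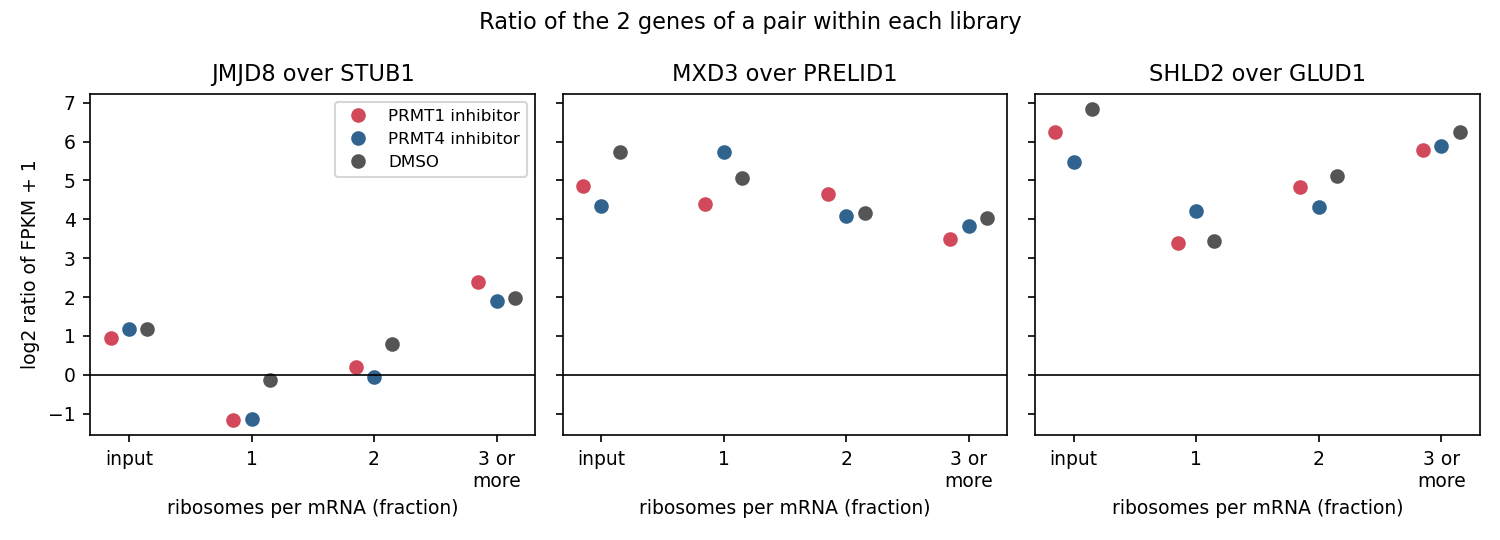
Log2 ratio of FPKM + 1 of JMJD8 over STUB1, MXD3 over PRELID1 and SHLD2 over GLUD1 in each of the 12 libraries, by fraction and coloured by treatment (1 point per library, line at 0 for equal values). The JMJD8 ratio lies below 0 in all 3 libraries of 1 ribosome and above 0 in all 3 of 3 or more, and the SHLD2 ratio is higher with 3 or more ribosomes (5.78 to 6.25) than with 1 (3.39 to 4.22).

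Gradient position, the log2 ratio of FPKM + 1 with 3 or more ribosomes to that with 1 ribosome, was then set against all genes, with 0 placed at the median of the 10705 named genes that averaged 1 FPKM or more. This moved it by -0.06, -0.05 and -0.01 under the PRMT1 inhibitor, the PRMT4 inhibitor and DMSO. SHLD2 was the member farthest toward the heavy fraction, at 2.71, 2.02 and 2.74 under the PRMT1 inhibitor, the PRMT4 inhibitor and DMSO, or 2.49 ± 0.40 (SD, 3 treatments). JMJD8 followed at 1.47, 1.43 and 0.97, or 1.29 ± 0.28. GLUD1 stood at 0.32, 0.37 and -0.07. PRELID1 stood at -0.88, -0.98 and -0.65, STUB1 at -2.07, -1.60 and -1.13, and MXD3, with the lowest mean of the 6, at -1.78, -2.88 and -1.69, although STUB1 was the lower under the PRMT1 inhibitor. SHLD2 did not overlap JMJD8, and neither overlapped GLUD1 or the 3 others. PRELID1 overlapped neither GLUD1 nor STUB1, whereas STUB1 and MXD3 overlapped each other. These are ranges over 3 different conditions, and how many pairs of genes are as separate was not counted.

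Of the 18 values (6 genes in 3 treatments), 5 were at least 2-fold toward 3 or more ribosomes and 6 at least 2-fold toward 1 ribosome, beside 22.5% and 26.2% of the values of all genes. In every treatment SHLD2 was at least 2-fold higher, which 3.92% of genes were, and STUB1 and MXD3 were at least 2-fold lower, which 6.27% were. Among 1191 genes with a mean of at least 50 FPKM these shares were 6.47% and 12.2%. STUB1 in DMSO was within 2-fold with upper-quartile centring (-0.86) and with a minimum mean of 5 FPKM (-0.98), while JMJD8 in DMSO then passed 2-fold (1.24 and 1.13), so that in every treatment SHLD2 and JMJD8 were past 2-fold higher and only MXD3 lower. In the order of the fractions, JMJD8 and SHLD2 stepped up from 1 to 2 to 3 or more ribosomes in all 3 treatments, as did 2.6% of all genes and 10.1% of those with a mean of at least 50 FPKM. STUB1 and MXD3 stepped down in all 3, as did 4.39% and 14.7%. SHLD2 stood above 96.6 to 99.3% of the 1191 well-expressed genes in its gradient position, and MXD3 above 2.52 to 11.4%.

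Counting error was small beside these differences for the 4 highly listed genes and not for their partners. From the fragments estimated with the shortest protein-coding transcript, the 95% exact binomial interval was 2.54 to 2.94 for SHLD2 in DMSO, 0.85 to 1.09 for JMJD8, -1.32 to -0.95 for STUB1 and -1.94 to -1.45 for MXD3. It was -0.58 to 0.45 for GLUD1, and it also held 0 under the PRMT1 inhibitor (-0.23 to 0.90) and the PRMT4 inhibitor (-0.23 to 1.01). For PRELID1 it was -1.71 to 0.31 in DMSO, -2.09 to 0.05 under the PRMT4 inhibitor and -1.66 to -0.13 under the PRMT1 inhibitor. These intervals cover counting error only, and they would be wider if the fragments came from shorter transcripts.

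**Figure D4:**
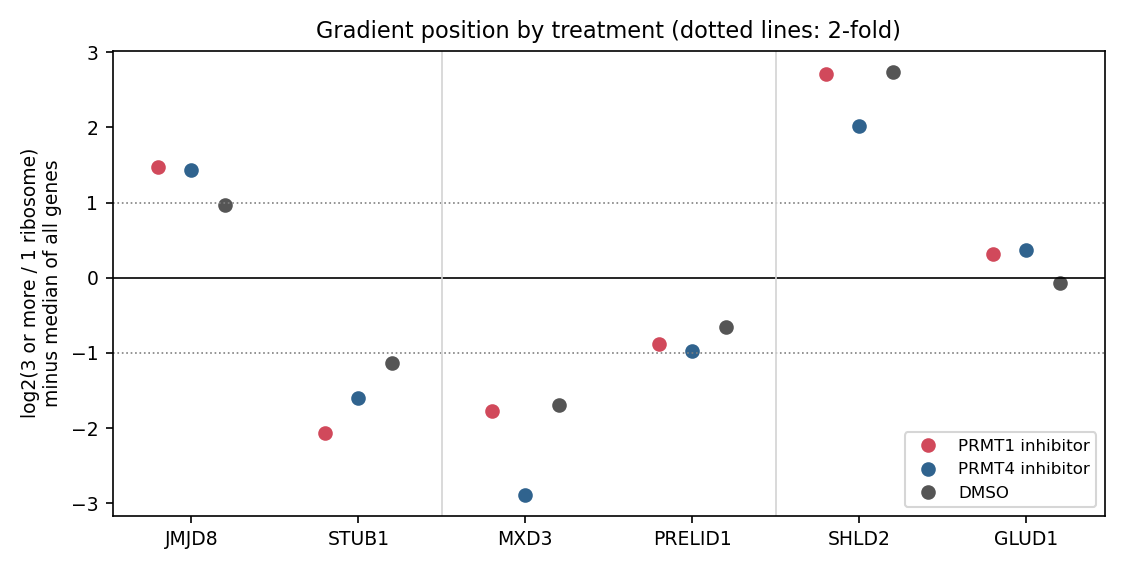
Gradient position of the 6 genes under the PRMT1 inhibitor, the PRMT4 inhibitor and DMSO (1 point per treatment), as log2 of 3 or more ribosomes over 1 ribosome minus the median of all genes, with dotted lines at 2-fold. SHLD2 (2.02 to 2.74) and JMJD8 (0.97 to 1.47) lie above 0, STUB1 (-2.07 to -1.13) and MXD3 (-2.88 to -1.69) below it, and GLUD1 lies around it.

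Within pairs, JMJD8 lay 3.54, 3.03 and 2.11 (log2) farther toward 3 or more ribosomes than STUB1 under the PRMT1 inhibitor, the PRMT4 inhibitor and DMSO, a mean of 2.89 ± 0.73 (SD, 3 treatments), or 7.42-fold. SHLD2 lay 2.39, 1.66 and 2.80 farther than GLUD1, a mean of 2.28 ± 0.58. MXD3 minus PRELID1 was -0.90, -1.90 and -1.04, a mean of -1.28 ± 0.54. The first 2 pairs named here differed by at least 2-fold the same way in all 3 treatments, which 13.4% of the 911 opposite-strand pairs did, and 16.7% of the 54 pairs whose higher gene averaged at least 500 FPKM. The root mean square distance between partners over the 12 libraries, with each gene and library centred, was 1.11 (log2) for JMJD8 and STUB1, 1.08 for SHLD2 and GLUD1 and 0.68 for MXD3 and PRELID1, beside a median of 0.93 over the 911 pairs (quartiles 0.67 and 1.31). Over the 54 pairs whose higher gene averaged at least 500 FPKM the median was 0.73. Of these, 77.8% were closer than JMJD8 and STUB1, 75.9% closer than SHLD2 and GLUD1, and 46.3% closer than MXD3 and PRELID1. By the same distance STUB1 was nearer to MXD3 (0.44) and to PRELID1 (0.45) than to JMJD8, and JMJD8 was nearer to SHLD2 (0.57) than to STUB1.

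The genes with the most similar course over the 12 libraries were sought among 1190 others with a mean of at least 50 FPKM. For JMJD8 they were RANBP1, a partner of the nuclear transport GTPase Ran (distance 0.24), CYC1, a cytochrome subunit of respiratory complex III (0.25), and IL17D, a cytokine gene (0.27), beside a median distance of 0.84. RANBP1 and IL17D have exons opposite TRMT2A and AL161772.1, and CYC1 has none. For MXD3 they were C1orf35, ICAM5, an adhesion molecule, and ACAP1, a GTPase-activating protein for ARF6, at 0.28, 0.33 and 0.33 with a median of 1.01, and none of these 3 has an exon on the opposite strand. For SHLD2 they included KRT8, an epithelial keratin that lies opposite KRT18, and KCNK15, a member of a potassium channel family opposite RIMS4 and KCNK15-AS1, at 0.26 and 0.38 with a median of 1.22.

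Against input, the values with 3 or more ribosomes were less far apart. Of 18 values, 2 were at least 2-fold higher and 1 at least 2-fold lower, beside 23.8% and 21.3% of the values of all genes. SHLD2 was higher under the PRMT4 inhibitor, at 2216 FPKM with 3 or more ribosomes and 863.7 in the input, where 22% of genes were. GLUD1 was higher in DMSO, at 42.1 and 11.5, as 25.2% of genes were. MXD3 was lower in DMSO, at 814.0 and 1531, as 20.3% of genes were. The 2 DMSO values rest on the DMSO input, for which 0.68 (log2) was subtracted as the median of all genes. Without that step MXD3 was -0.91 and no value was 2-fold lower, and JMJD8 and SHLD2 in DMSO were then 2-fold higher. GLUD1 was higher with 3 or more ribosomes than in the input in every treatment. It differed by 0.63, 0.96 and 1.10 under the PRMT1 inhibitor, the PRMT4 inhibitor and DMSO. So did JMJD8, by 0.46, 0.95 and 0.58, SHLD2, by 0.17, 1.36 and 0.52, and PRELID1, by 0.68, 0.01 and 0.11. MXD3 was lower in every treatment, at -0.69, -0.49 and -1.59, and STUB1 stood at -0.99, 0.23 and -0.23. How many of all genes were higher in every treatment was not counted.

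In nearly every fraction the 6 genes were listed within 2-fold of DMSO under either inhibitor. With the PRMT1 inhibitor none of the 24 values (6 genes in 4 libraries) was at least 2-fold higher or lower, beside 19.4% and 17% of the values of all genes. Such shares, here and below, include genes with few fragments, of which 1138 to 2906 a library had no listed FPKM. They were not made for genes of at least 50 FPKM, so they do not show whether the 6 genes were unusually steady. The farthest of the 24 was PRELID1 with 1 ribosome, at 152 FPKM with the inhibitor and 77.9 in DMSO (0.95 on the log2 scale, 95% counting interval 0.20 to 1.73). PRELID1 with 3 or more ribosomes was next among the higher values, at 78.5 and 48.7 (0.68, interval -0.29 to 1.74), followed by STUB1 with 1 ribosome, at 3514 and 2265 (0.63, interval 0.50 to 0.76). MXD3 in the input was the lowest, at 1437 with the inhibitor and 1531 in DMSO, or -0.77 after 0.68 was subtracted as the median of all genes between these inputs. Without that step it was -0.09, while STUB1 and GLUD1 in the input were 1.08 and 1.12, past 2-fold. SHLD2 differed from DMSO by -0.16, -0.43, -0.57 and -0.51 in the input and with 1, 2 and 3 or more ribosomes, and its input value turned to 0.52 without the subtraction.

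With the PRMT4 inhibitor, 0 of 24 values were at least 2-fold higher and 2 at least 2-fold lower, beside 21.1% and 17.9% of the values of all genes. Both were inputs, a comparison in which 19.6% of all genes were lower: MXD3 at 861.7 FPKM with the inhibitor and 1531 in DMSO (-1.39), and SHLD2 at 863.7 and 1425 (-1.29). The median of all genes between these inputs was 0.57, and without its subtraction the values were -0.83 and -0.72, within 2-fold. MXD3 with 1 ribosome went the other way, at 4693 with the inhibitor and 2655 in DMSO (0.82, interval 0.67 to 0.98). JMJD8 was below DMSO in all 4 libraries, at -0.62, -0.79, -0.72 and -0.37, although the input value was -0.05 without the subtraction. Both comparisons use the same DMSO libraries, so they are not independent.

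The gradient position itself differed from DMSO by less than 2-fold for 5 of the 6 genes under either inhibitor. MXD3 under the PRMT4 inhibitor was the exception, at -2.88 against -1.69 in DMSO, a difference of -1.19, and 25.4% of all genes were at least as far below DMSO as 2-fold. No value was 2-fold higher, beside 27.4% of genes with the PRMT4 inhibitor and 25.8% with the PRMT1 inhibitor. STUB1 under the PRMT1 inhibitor was next, at -2.07 against -1.13 (-0.94), beside 26.5% of genes past 2-fold lower in that comparison. JMJD8 was higher than DMSO by 0.50 with the PRMT1 inhibitor and by 0.46 with the PRMT4 inhibitor.

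**Figure D5:**
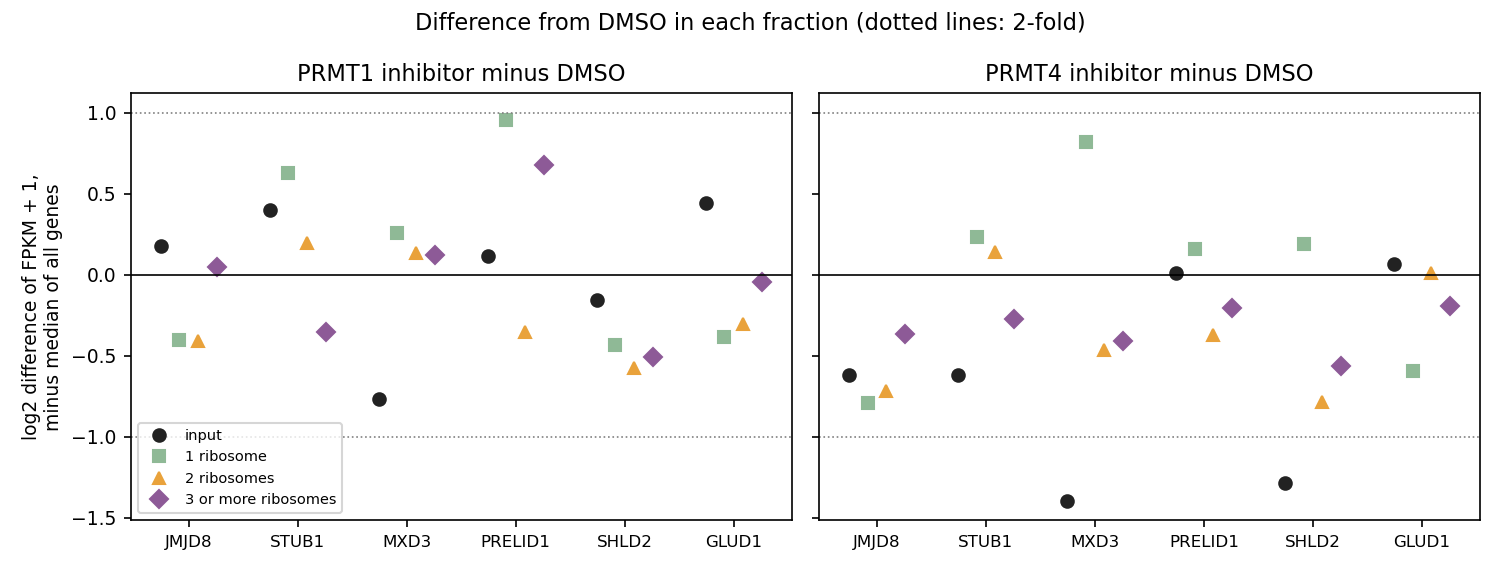
Log2 difference of FPKM + 1 between the PRMT1 inhibitor and DMSO (left) and between the PRMT4 inhibitor and DMSO (right) for the 6 genes, minus the median of all genes, with 1 point per fraction and dotted lines at 2-fold. Only MXD3 and SHLD2 in the PRMT4 inhibitor input, at -1.39 and -1.29, lie past 2-fold, and both are within it when the median is not subtracted.

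Other genes of the same pathways were counted by gradient position. Of 22 chaperone partners and co-chaperones of STUB1 that were measured at a mean of at least 1 FPKM (26 listed), 3 were at least 2-fold toward 3 or more ribosomes in every treatment (the inducible HSP70 gene HSPA1B and the HSP70 co-chaperones DNAJC7 and HSPBP1) and 0 toward 1 ribosome, beside 3.92% and 6.27% of all genes. HSPA8, the constitutive HSP70 and the highest listed of them, ran toward 1 ribosome at -1.77, -0.42 and -1.20 under the PRMT1 inhibitor, the PRMT4 inhibitor and DMSO. Of 12 genes of the MYC, MAX and MXD network (14 listed), 0 met the rule in either direction. MLX, a MAX-like partner with PSMC3IP opposite, stood at -0.61, -0.44 and -0.48, and MYC at 2.08, -0.90 and 0.77. Of 12 genes of mitochondrial phospholipid transfer and cardiolipin synthesis (15 listed), 1 was higher and 1 lower in every treatment. The higher was YME1L1, a protease that degrades PRELID1, at 1.46 ± 0.30 (SD, 3 treatments), with MASTL opposite, and the lower was PGS1, which makes a precursor of cardiolipin.

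Of 9 genes around shieldin and 53BP1 (12 listed) and 13 of glutamate and glutamine metabolism (16 listed), 0 met the rule in either direction. TP53BP1, which recruits shieldin by way of RIF1 and has TUBGCP4 opposite, stood at 0.72, 0.72 and 0.54 under the PRMT1 inhibitor, the PRMT4 inhibitor and DMSO, and SLC1A5, a glutamine carrier, at 0.34, 0.29 and 1.14. Of 13 other JmjC-domain genes (16 listed), 1 was higher in every treatment, KDM6A, a histone demethylase, and 0 were lower. JMJD4, the highest listed of these at a mean of 152 FPKM and opposite SNAP47, stood at 0.30, 0.76 and 0.85.

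Promoter letters were compared for MXD3 and PRELID1, because MXD3 protein pairs with MAX on the E-box CACGTG, which reads the same on both strands. RefSeq promoter windows (GRCh38.p14, 250 bases before to 50 after the start) were found for 4 of the 6 genes, JMJD8, MXD3, PRELID1 and GLUD1. The motif occurred in that of PRELID1, beginning 55 bases before the start, and in none of the other 3. It occurred in 7.43% of 27305 promoters. The 60 bases before each start are shown, with the motif in capitals.
PRELID1, plus strand, chr5:177303739-177303798: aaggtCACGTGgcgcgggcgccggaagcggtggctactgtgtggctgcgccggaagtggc
MXD3, minus strand, chr5:177312753-177312812: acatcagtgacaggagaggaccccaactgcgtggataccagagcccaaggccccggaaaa
The match is a description of these letters and says nothing about binding in these cells.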

How the data were processed

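The deposited values were FPKM (fragments scaled to transcript length and to mapped depth) for 15534 Ensembl gene IDs, made by the authors and rounded to 2 decimals, per the file headers and values. Per the submitters' processing notes, the tools were cutadapt 1.18, STAR 2.5.3a and RSEM, on GRCh37. Columns R1, R2 and R3 were matched to the samples titled 1, 2 and 3 ribosomes, a match on which all gradient results depend. Symbols were found for 15299 IDs. GENCODE release 29 (GRCh38) gave names, exon overlaps and lengths only. Depth was estimated from steps in the FPKM of single-transcript genes over 1500 bases; 86.4 to 92.4% of low values lay within 0.15 of a whole fragment. The scale was log2(FPKM + 1), on which differences of low genes come out too small, centred on the median of 10705 named genes with a mean of at least 1 FPKM. All 6 genes passed that minimum. With 1 library per group, genes were described by a 2-fold rule beside the share of all genes past it. Only the gradient difference was tried on simulated counts, with changes put into genes of at least 50 FPKM in 1 library. That simulation held no mixing of strands and did not check the shares. Genes named beside the 6 were those sharing their exons, the 3 nearest in course to the higher gene of each pair, and pathway members with the highest means or meeting the rule in every treatment; the last were named after their values were seen. A few genes that these rules name are not reported here. The members and lists were chosen with earlier results of these data known. Python 3.11.15, numpy 2.4.6, pandas 2.3.3 and scipy 1.17.1 were used.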

Additional observations from a re-analysis of the deposited data

Results flagged for a closer look

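GLUD1 was the one gene of the 6 whose gradient position had opposite signs between treatments: 0.32 with the PRMT1 inhibitor and 0.37 with the PRMT4 inhibitor, against -0.07 in DMSO. The differences from DMSO were 0.39 and 0.43 on the log2 scale. With 1 library per group they were not tested, and the counting interval of each of the 3 values held 0. The DMSO value was 0.20 with upper-quartile centring and 0.09 with a minimum mean of 5 FPKM, and the 3 treatments then had the same sign.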

How the results depend on the processing

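No paired analysis was possible because the labels give no replicate numbers and no result comes from a test; fractions of 1 treatment were matched only through their within-treatment differences. The counts along the gradient (5 values higher and 6 lower) stayed within 1.5 times under other pseudocounts, other centring and other minimum means. Under a 1.5-fold rule they were 6 and 9. The within-pair ratios stayed within 1 SD with other pseudocounts, without the DMSO or the PRMT4 inhibitor input, and with the ribosome fractions only. The within-pair differences in gradient position were recomputed with other pseudocounts only and stayed within 1 SD. The profile distances stayed within 1.5 times with other pseudocounts and with the ribosome fractions only. Counts that use an input moved. Against input, 2 values were higher and 1 lower; the higher count was 1 with a pseudocount of 0.1, 4 without centring, 4 with upper-quartile centring and 6 under a 1.5-fold rule, and the lower count was 0 without centring and 3 under the 1.5-fold rule. With the PRMT1 inhibitor, the count higher was 0 and became 2 without centring and 3 under the 1.5-fold rule, where the count lower became 1. With the PRMT4 inhibitor, the count lower was 2 and became 1 with a pseudocount of 5, 0 without centring, 0 with no minimum mean and 8 under the 1.5-fold rule, where the count higher became 1. The same single values were recomputed under each alternative that applies to them, which gave 588 recomputations. In 565 of these the value kept its side of 2-fold, in 13 it passed it and in 10 it no longer did. The sign differed in 20, of which 0 were past 2-fold in either setting. Why the counts moved was not tested. Depth limits PRELID1 and GLUD1 most.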
